A study of Mus musculus with 29 samples.

Results

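T cell receptor beta chains with a long CDR3, the complementarity-determining region at the junction of the gene segments, were described here. They were taken as all beta chain (TRB) clonotypes whose CDR3 amino acid sequence had 16 or more letters, counted with the conserved first and last residue, and with every residue resolved. This gave 4061 of the 27384 resolved TRB clonotypes (14.8%), which carried 34260 of the 289365 TRB counts (11.8%). A clonotype was a distinct combination of V segment, J segment and CDR3 sequence, and the other 23323 TRB clonotypes, with 15 or fewer letters, are called shorter below. The table held 49519 rows of alpha and beta chains in all. The samples came from mice in an experimental metastasis model of melanoma with a Braf mutation, a skin tumour in which a growth kinase is altered, and were metastases in the brain or the ovary.

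The table covered 19 brain samples from 10 numbers and 10 ovary samples from 5 of those numbers. The labels did not say whether a number was an animal, nor what the parts of a number (13-1 and 13-2, for example) were, and gave no strain or age. P-values of exact permutation tests therefore measure only the spread between numbers, which were taken as the replicates, with the parts of a number averaged. Those of edgeR, used for the segments, also draw on the spread over all segments. Untreated samples (numbers 3 and 7, titled Vehicle, with the treatment given as No) and samples after an anti-PD-L1 lead-in alone (numbers 10 and 11) were from day 0. Day 3 samples had received trametinib (numbers 8 and 13), trametinib with concurrent anti-PD-L1 (numbers 1 and 6), or the lead-in and then both drugs together (numbers 12 and 14). Numbers 1, 3, 10, 12 and 13 were sampled in both organs, so the ovary held 1 number per treatment. Anti-PD-L1 blocks a ligand that restrains T cells, and trametinib inhibits the kinase MEK of the MAPK pathway. All trametinib samples were from day 3 and all others from day 0, so drug and day cannot be told apart.

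The beta chain CDR3 is built by joining a V, a D and a J segment, with nucleotides trimmed and added at the joints by chance. It makes much of the contact with the peptide that a T cell recognises, and its length follows the ends that V and J contribute, the trimming and the added nucleotides. Cells that descend from 1 T cell, a clone, carry the same CDR3, so the expansion of a clone adds to the counts of its clonotype. Clonotypes were told apart by amino acids here, so 1 clonotype can hold more than 1 clone. Where a large clone is named below, it is a clonotype in this sense. In these bulk RNA libraries more cells of a clone and more receptor RNA per cell cannot be told apart.

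TRB totals ranged from 266 to 7067 counts in the brain (median 1273) and from 16179 to 51674 in the ovary. A brain sample held 79 to 1210 TRB clonotypes, 9 to 159 of them long, and an ovary sample held 1521 to 3774, 197 to 507 of them long. Intervals below are exact 95% Clopper-Pearson intervals and cover counting error only. Where nothing was seen, the share that is still allowed is taken as 3 of the total, unless an interval is named. The table held receptor chains alone, so no marker of either organ could be read from it.

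Most members sat just above the threshold. CDR3 of 16 letters made up 2909 members (71.6%) with 25431 counts, 17 letters made up 886 (21.8%) with 5087 counts, and 18 letters made up 208 (5.12%) with 3525 counts. There were 39 members of 19 letters and 9 of 20 letters, and 19 members had 20 or more. Just outside the threshold, 15 letters were found in 6300 clonotypes with 64989 counts, the most frequent length being 14 letters (8146 clonotypes), followed by 15 and 13 letters (5036). The longest CDR3 had 53 letters and 2 counts, and the next had 40 and 26 letters. A CDR3 normally runs from a cysteine of the V segment to a phenylalanine of the J segment. This held for 3955 members, while 47 did not start with the cysteine and 60 did not end with the phenylalanine. Of the members, 1035 were seen in the brain, 3145 in the ovary and 119 in both.

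Long CDR3 made up a like share of TRB counts in most brain samples, and 3 samples stood above the rest. In untreated brain the 2 parts of number 3 had long shares of 11.6% and 11.9%, and number 7 had 6.45%. After the lead-in alone it was 11.3% and 14.1% in number 10 and 9.31% and 8.25% in number 11. With trametinib it was 10.8% and 12.1% in number 8 and 6.53% and 9.29% in number 13. The day 0 and trametinib samples thus covered much the same range. With concurrent treatment it was 10.3% and 11.4% in number 1, and in number 6 it was 9.54% (7.996 to 11.3%) in part 1 against 20.9% (18.9 to 23.0%) in part 2. With the lead-in followed by combination it was 9.24% and 9.51% in number 12 against 19.3% (18.3 to 20.2%) and 21.5% (20.2 to 22.8%) in number 14. Both high values of number 14 stood with a number of the same treatment that was among the low ones, and the parts of number 6 lay apart.

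Treatment means of the long share of counts in the brain, over 2 numbers each, were 9.09% ± 3.74 (SD) untreated, 10.7% ± 2.78 after the lead-in, 9.696% ± 2.52 with trametinib, 13.03% ± 3.08 with concurrent treatment and 14.9% ± 7.78 with lead-in and combination. Within days, numbers with the lead-in were 2.58 percentage points higher than those without (exact permutation test, two-sided, p = 0.322, adjusted p = 0.495). Numbers with any anti-PD-L1 were 2.95 points higher (exact permutation p = 0.244, adjusted p = 0.495), and numbers with trametinib 2.62 points higher (exact permutation p = 0.371, adjusted p = 0.495). Treatment took up 32.3% of the sum of squares between numbers (exact permutation p = 0.699, adjusted p = 0.699). None of the 4 contrasts was larger than the spread between numbers. Without number 14 the lead-in difference was -0.17 points, and without number 12 it was 5.33 points. The smallest p this design allows is 0.0111 for the contrasts within days, and p-values were adjusted over 8 brain tests.

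**Figure D1:**
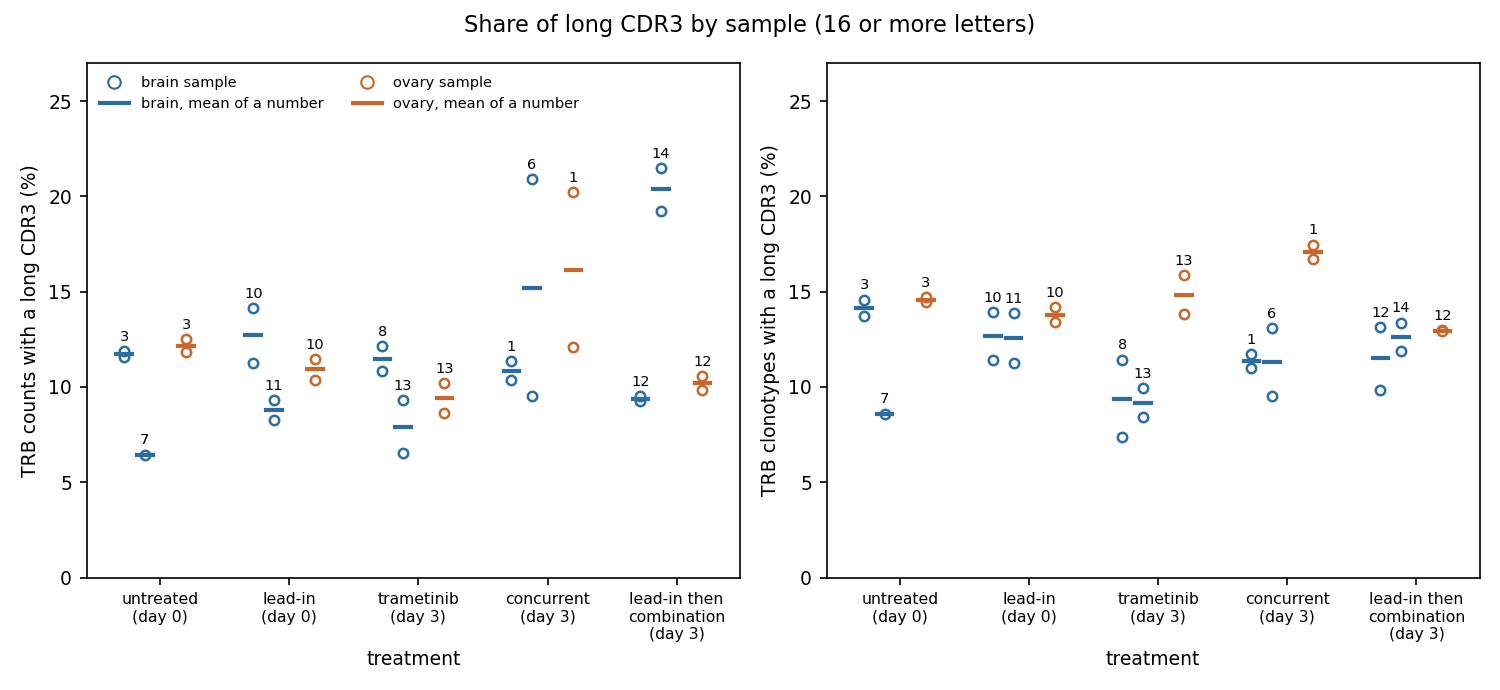
Share of TRB counts (left, %) and of TRB clonotypes (right, %) with a CDR3 of 16 or more letters, by treatment; open circles are samples, bars are means over the parts of a number, digits are the numbers, blue is brain and orange is ovary. Brain number 14, part 2 of brain number 6 and part 2 of ovary number 1 lie near or above 20% of counts, while no sample exceeds 17.5% of clonotypes.

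The high shares of counts came with a few large clones. In number 14 the most abundant TRB clonotype of both parts was long, a TRBV29 and TRBJ2-1 chain of 16 letters with 832 of 7067 counts (11.8%) in part 1 and 594 of 4148 counts (14.3%) in part 2. Without it the long share of number 14 was 8.48% and 8.36%, inside the range of the other brain samples. In part 2 of brain number 6 the most abundant clonotype was a TRBV13-2 and TRBJ2-1 chain of 16 letters with 97 of 1527 counts (6.35%). It was not seen among 1300 counts of part 1, which allows a share of up to 0.231%. Without it the long share of part 2 was still 15.52%, the highest such value among brain samples, where the lowest was 5.35%. The largest long clonotype held 0.626% to 14.3% of TRB counts over the brain samples and 0.915% to 5.62% over the ovary samples.

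**Figure D2:**
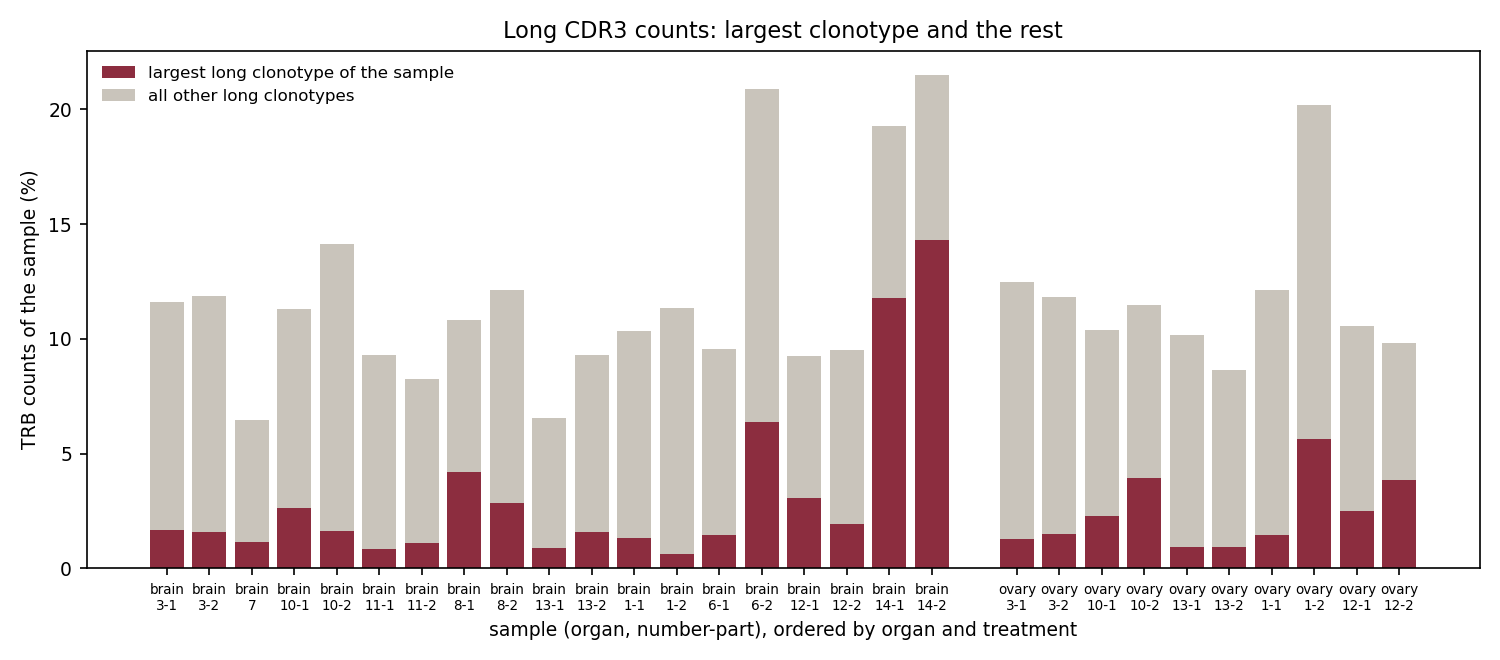
Percent of TRB counts with a long CDR3 in each of the 29 samples, split into the largest long clonotype of the sample (dark red) and all other long clonotypes (grey), stacked from 0. The dark part exceeds 11% in both parts of brain number 14 and stays at or below 6.35% in the other samples.

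Counted as distinct clonotypes rather than counts, the long share of the brain was narrower. Single samples ranged from 7.35% (part 1 of number 8) to 14.6% (part 2 of number 3), with a median of 11.4%. Number means were 14.2% and 8.61% untreated, 12.7% and 12.6% after the lead-in, 9.39% and 9.18% with trametinib, 11.4% and 11.3% with concurrent treatment, and 11.5% and 12.6% with lead-in and combination. The untreated numbers were the highest and the lowest of the 10 and lay 5.56 points apart. The 2 numbers of each other treatment lay 0.0634 to 1.12 points apart, while the parts of a number lay 0.719 to 4.08 points apart (median 2.54 over 9 numbers).

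Within days, numbers with the lead-in exceeded those without by 1.49 percentage points in the long share of brain clonotypes (p = 0.322 by the exact permutation test, 0.495 after adjustment). Numbers with any anti-PD-L1 exceeded the others by 1.82 points (p = 0.167 by the exact permutation test, 0.495 after adjustment). Numbers with trametinib differed by -1.11 points from those without (exact permutation p = 0.367, adjusted p = 0.495). Treatment took up 44.2% of the sum of squares between numbers (exact permutation p = 0.502, adjusted p = 0.573). No contrast passed the threshold. With 1 untreated number left out, treatment took up 96.8% (without number 7) or 96.7% (without number 3) of the sum of squares, each with an exact permutation p of 0.00212 and an adjusted p of 0.0169. The untreated group is then 1 number, and only the other 4 treatments give the spread within groups. Untreated brain was then the highest or the lowest group, depending on which number was left.

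In the ovary, where each treatment had 1 number and no test between treatments was run, the long share of counts was 12.5% and 11.8% untreated (number 3), 10.4% and 11.5% after the lead-in (number 10), and 10.2% and 8.65% with trametinib (number 13). It was 12.1% and 20.2% with concurrent treatment (number 1) and 10.6% and 9.83% with lead-in and combination (number 12). Part 2 of number 1 was the only ovary sample above 12.5%. Its largest long clonotype was a TRBV13-2 and TRBJ2-2 chain of 16 letters and the most abundant clonotype of that sample. This chain held 1178 of 20978 counts (5.62%), against 22 of 24835 counts (0.0886%) in part 1. Without it the long share of part 2 was still 15.46%, the highest such value among ovary samples, where the lowest was 6.24%. The long share of ovary clonotypes was 16.7% and 17.5% in number 1 and 12.95% to 15.9% in the other 8 samples.

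At unequal depth, long CDR3 made up more of the distinct clonotypes in the ovary than in the brain in 5 of 5 numbers. The difference did not pass the threshold after adjustment. The share of clonotypes was 14.7% ± 1.55 (SD, n = 5) in the ovary and 11.8% ± 1.83 in the brain, 2.88 percentage points apart (exact permutation p = 0.0317, adjusted p = 0.0635 over 2 tests). The long share of counts was 11.8% ± 2.65 in the ovary and 10.5% ± 1.90 in the brain, higher in 4 of 5 numbers (exact permutation p = 0.437, adjusted p = 0.437). Depth differed between the organs: with every sample rarefied to 266 TRB counts, the expected long share of clonotypes was 12.2% ± 1.76 in the ovary and 11.2% ± 2.06 in the brain, 0.94 points apart (exact permutation p = 0.429, adjusted p = 0.437). So rarefied, the mean of the parts was higher in the ovary in numbers 1, 12 and 13 and lower in numbers 3 and 10. The parts of number 3 were at 13.6% and 12.8% in the ovary and 13.7% and 14.2% in the brain. Those of number 10 were at 10.8% and 10.3% in the ovary and 11.4% and 13.4% in the brain. Rarefying also moves the share of clonotypes towards the share of counts. Under 7 of the 14 alternatives tried, all at unequal depth, the adjusted p of the unpaired exact permutation test was 0.0317 or 0.0476. Paired by number, the test of 5 numbers cannot go below 0.0625, the value it gave (exact sign-flip permutation, adjusted p = 0.125), so none of these alternatives could pass a paired test.

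The mean size of long clonotypes did not differ from that of shorter ones past the threshold in either organ. In the ovary a long clonotype held 8.495 ± 1.91 counts on average and a shorter one 10.9 ± 1.90 (SD over 5 numbers), and the mean log2 ratio of long to shorter was -0.39 ± 0.22. The ratio was below 0 in 5 of 5 numbers, from -0.75 in number 13 to -0.14 in number 1, with the smallest p that 5 numbers allow (exact sign-flip permutation p = 0.0625, adjusted p = 0.125). In the brain the mean log2 ratio was -0.04 ± 0.44 (SD, n = 10), above 0 in 4 numbers, with the highest value of 0.82 in number 14 and the lowest of -0.57 in number 11 (exact sign-flip permutation p = 0.791, adjusted p = 0.791). Clonotypes seen with a single count made up a larger percentage of the long than of the shorter ones in 16 of 19 brain and 9 of 10 ovary samples. The ratios of the organs, over the 5 numbers sampled in both, differed by -0.20 on the log2 scale (exact permutation p = 0.135).

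Some of the large clones were long. Among clones with 1% or more of the TRB counts of a sample, 27 of 250 were long in the brain (10.8%) and 8 of 77 in the ovary (10.4%), while long CDR3 made up 11.3% of all clonotypes in the brain and 14.7% in the ovary on average over numbers. The brain share was near that base share, and the differences were not tested. They were 31 different clonotypes, 26 of 16 letters, 2 of 17 and 3 of 18. Of these, 30 were seen in 1 number only, 16 in 1 sample only and 10 in both organs. Depth bears on these counts: 4 of 320 counts passed 1% in part 2 of brain number 3, while ovary samples held 16179 counts or more. The clones in 1 sample included some of 4 or 5 counts, which could be missed in another sample.

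Several of the large long clones were seen in each part and each organ of their number. A TRBV5 and TRBJ2-4 chain of 16 letters held 1.88% and 1.49% of brain counts (5 of 266 and 10 of 672) and 2.26% and 3.93% of ovary counts in number 10, and passed 1% in all 4 samples. Number 12 had a pair of large clones of 18 letters. Its TRBV17 and TRBJ2-7 chain held 1.30% and 0.609% in the brain and 2.49% and 3.83% in the ovary, where it was the largest long clone. Its TRBV14 and TRBJ2-3 chain held 3.05% and 1.94% in the brain, where it was the largest, and 2.10% and 0.916% in the ovary. The TRBV14 chain was thus the more abundant of the pair in both brain parts and the less abundant in both ovary parts. In number 1 the TRBV13-2 and TRBJ2-2 chain named above also held 1.31% and 0.626% of brain counts, and a TRBV20 and TRBJ2-3 chain of 16 letters held 0.219% and 0.313% in the brain and 1.05% and 1.15% in the ovary.

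Other large long clones were found in 1 organ or unevenly between parts. In brain number 8 a TRBV17 and TRBJ2-2 chain of 16 letters held 4.17% (22 of 527 counts) and 1.69% (6 of 354 counts). A TRBV16 and TRBJ2-3 chain of the same number held 0.190% in part 1, a single count, and 2.82% in part 2. In the ovary of number 3 a TRBV12-2 and TRBJ1-3 chain of 16 letters held 1.29% and 1.51%, and it was not seen in the brain of that number, where 302 and 320 counts allow shares of up to 0.993% and 0.9375%. In number 13 the TRBV16 and TRBJ2-7 chain that was largest in the ovary held 0.915% in each part and was not seen in the brain, where 689 and 635 counts allow up to 0.435% and 0.472%. A TRBV23 and TRBJ2-2 chain of 17 letters was seen in all 4 samples of that number, from 0.0463% to 1.57%. For the chains of numbers 3 and 13 these limits in the brain lay below the shares in the ovary. By the exact intervals, part 1 of brain number 3 allowed up to 1.21%, and the interval of ovary part 1 was 1.149 to 1.44%, so these overlapped. For number 13 the intervals lay apart, up to 0.579% in the brain and from 0.774% in the ovary.

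Long clonotypes were shared between numbers far less often than shorter ones. Of the members, 32 (0.788%) were found in 2 or more of the 10 numbers, against 771 of the shorter clonotypes (3.31%). Per number, 1.93% of the long and 8.59% of the shorter clonotypes also occurred in another number on average, a difference of -6.66 percentage points ± 2.95 (SD, n = 10). The difference was below 0 in 10 of 10 numbers, from -13.1 points in number 8 to -2.86 in number 7 (exact sign-flip permutation p = 0.00195, the smallest that 10 numbers allow). A shared clonotype counts in each number that holds it, so these 10 values are not independent. In number 8 none of 27 long clonotypes was found elsewhere, which allows a share of up to 11.1%. In number 7 it was 1 of 21 (4.76%), in number 14 it was 7 of 193 (3.63%), and in the other 7 numbers the long share was 1.17% to 2.08%.

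**Figure D3:**
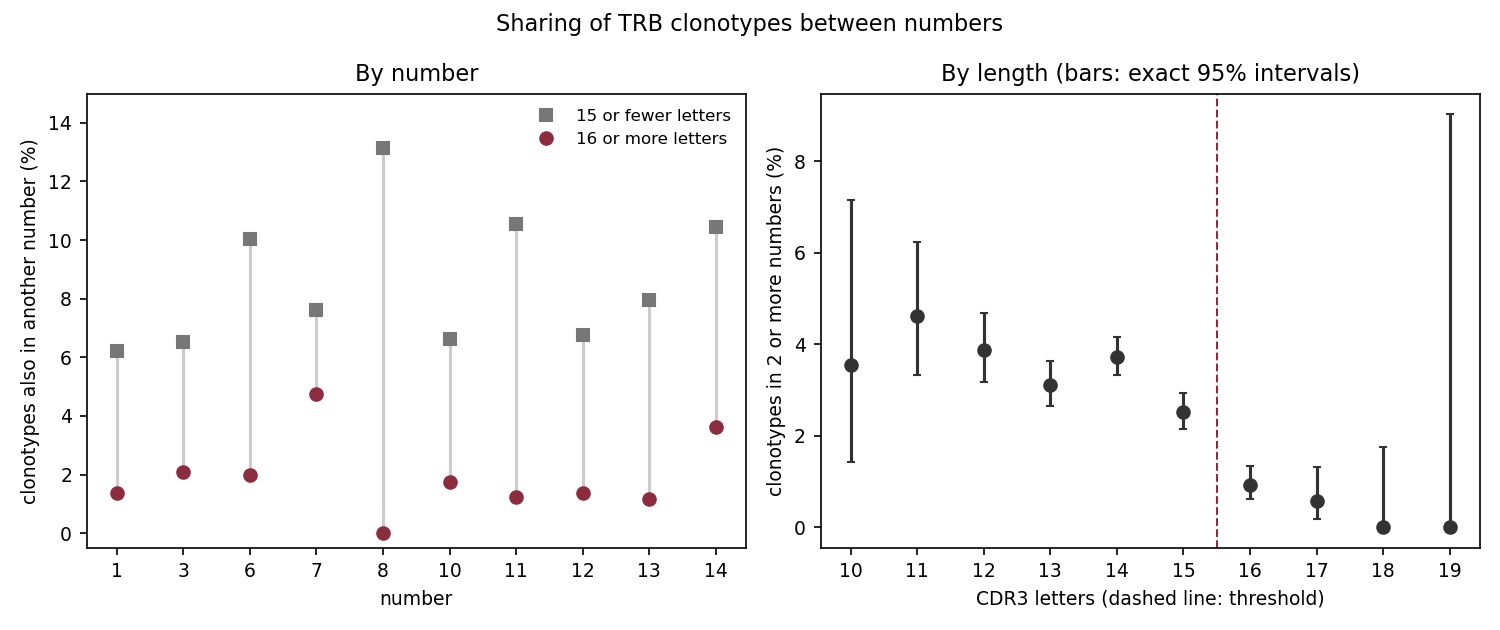
Left, percent of the TRB clonotypes of each number that also occur in another number, for long (red circles) and shorter (grey squares) CDR3, joined by a line for each of the 10 numbers. Right, percent of clonotypes found in 2 or more numbers by CDR3 length, with exact 95% intervals and the threshold as a dashed line; 15 letters lie at 2.52% and 16 letters at 0.928%.

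The share of clonotypes found in several numbers was lower just above the threshold than just below it. Of the clonotypes of 13, 14 and 15 letters, 3.12%, 3.72% and 2.52% were found in 2 or more numbers. The value was 0.928% for 16 letters (27 of 2909, interval 0.613 to 1.35%) and 0.564% for 17 letters (5 of 886, 0.183 to 1.31%). None of 208 clonotypes of 18 letters and none of 39 of 19 letters was shared, which allows up to 1.44% and 7.69%, and up to 1.76% and 9.03% by the exact intervals. Against shorter clonotypes of 15 letters alone the difference per number was -4.65 points (exact sign-flip permutation p = 0.00391), and with the shorter clonotypes weighted to the J usage of the long ones it was -6.53 points (exact sign-flip permutation p = 0.00195). Both of these comparisons were chosen after seeing the data.

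The shared members were mostly found in 2 numbers (29 of 32), and 3 were found more widely. A TRBV16 and TRBJ1-4 chain of 16 letters was seen in 4 numbers (1, 10, 12 and 13), with 10 counts in all and at most 5 in a sample. A TRBV13-2 and TRBJ2-1 chain of 16 letters was seen in numbers 1, 10 and 13 with 233 counts in 6 samples, 134 of them in part 1 of ovary number 1. A TRBV13-2 and TRBJ2-4 chain of 16 letters was seen in numbers 1, 10 and 12 with 29 counts in 4 samples. No member was found in 5 or more numbers, while 21 shorter clonotypes were. TRBV13-2 and TRBV16 were the most frequent V segments of the shared members, with 6 of the 32 each (18.75%). Among all members TRBV13-2 made up 14.9% and TRBV16 made up 11.4%.

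Within a number, long clonotypes did recur between organs. Of the long clonotypes in the brain of a number, 16.25% to 26.2% (8 to 39 clonotypes) were also found in its ovary, in numbers 1, 3, 10, 12 and 13. In the 20 pairings of the brain of a number with the ovary of another number it was 0 to 2 clonotypes, at most 2.70%. The corresponding share was lower for long than for shorter clonotypes in 5 of 5 numbers, at 22.3% to 42.0% for the shorter ones. Between the parts of the ovary of a number, 7.90% to 16.7% of the long clonotypes of part 1 recurred in part 2, against 13.2% to 22.1% of the shorter ones, and the long share was the lower in 5 of 5 numbers. Between the brain parts it was the lower in 6 of 9 numbers. The mean size of long clonotypes in the ovary was also the lower, and how far clone size sets these shares was not tested.

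The members drew on 22 V and 12 J segments. TRBV13-2 (606 members, 14.9%), TRBV1 (567, 13.96%), TRBV16 (463, 11.4%) and TRBV29 (366, 9.01%) were the most frequent V segments, and TRBJ2-1 (710, 17.5%), TRBJ2-4 (618, 15.2%) and TRBJ2-3 (615, 15.1%) the most frequent J segments. The J segments held similar places in both organs: TRBJ2-1, TRBJ2-3 and TRBJ2-4 made up 15.9%, 16.5% and 15.6% of the long clonotypes of the brain and 17.7%, 15.01% and 15.2% of those of the ovary.

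Long CDR3 used J and V segments in other proportions than shorter ones. TRBV21, TRBV22 and TRBV24 were seen among the shorter clonotypes only (18, 3 and 22 clonotypes). The TRBJ segments lie in 2 clusters, named TRBJ1 and TRBJ2, each behind a D segment of its own. Because V and J segments end inside the CDR3, the segment and the length of a clonotype are not independent measures. Of 33 segments tested with edgeR on numbers of distinct clonotypes, with the number as a block, 24 (72.7%) passed an adjusted p of 0.05, 11 higher and 13 lower among long clonotypes. The median log2 difference over the 33 was -0.10. The 5 numbers sampled in both organs held 591 to 877 long clonotypes each and the other 5 held 21 to 193, so the former weigh more in this test. By an exact sign-flip test of the percentages, which weighs the 10 numbers equally, 14 segments passed, 13 of them among the 24. With 10 numbers the sign-flip p cannot go below 0.00195. edgeR estimates the spread over all segments together, so its smaller p-values do not measure the spread between numbers alone.

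TRBJ2-2 had the highest log2 difference in favour of the long clonotypes. It made up 10.8% ± 2.52 of the long and 5.01% ± 0.699 of the shorter clonotypes of a number (SD, n = 10). It was higher among the long in 10 of 10 numbers, with long percentages from 7% in number 6 to 14.8% in number 8 and shorter ones from 3.61% to 6.01%, a log2 difference of 1.13 ± 0.12 (SE, edgeR adjusted p = 1.3e-18). TRBJ2-3 made up 14.4% ± 3.78 of the long and 8.37% ± 1.45 of the shorter clonotypes, with a log2 difference of 0.95 ± 0.10 (edgeR adjusted p = 1.8e-18), higher in 8 of 10 numbers. TRBV1, the V segment farthest upstream in the locus, was at 12.9% ± 2.83 against 7.10% ± 1.17, with a log2 difference of 0.95 ± 0.10 (edgeR adjusted p = 8.6e-18), higher in 9 of 10 numbers. The long and shorter percentages of TRBJ2-2 did not overlap over the numbers. The same held for TRBJ2-4, TRBJ1-1, TRBJ1-2, TRBJ2-7 and TRBV20, while those of all other segments tested overlapped.

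TRBJ1-1 had the lowest log2 difference. It made up 3.23% ± 1.25 of the long and 10.4% ± 1.41 of the shorter clonotypes, with long percentages from 1.22% in number 11 to 5.08% in number 12 and shorter ones from 7.17% to 12.1%, so the classes did not overlap. The log2 difference was -1.78 ± 0.13 (SE, edgeR adjusted p = 1.6e-30), lower in 10 of 10 numbers. TRBV30 was rare, with 6 members, at 0.0914% ± 0.132 against 0.514% ± 0.246, a log2 difference of -1.75 ± 0.58 (edgeR adjusted p = 0.0045). TRBJ1-2 made up 1.82% ± 1.24 against 6.27% ± 0.388, a log2 difference of -1.69 ± 0.17 (edgeR adjusted p = 1.4e-18), lower in 10 of 10 numbers. TRBJ2-7, the most frequent J segment of the shorter clonotypes at 23.4% ± 2.26, made up 6.22% ± 2.99 of the long ones (log2 difference -1.66, edgeR adjusted p = 6.3e-32). In number 8 none of 27 long clonotypes used it.

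**Figure D4:**
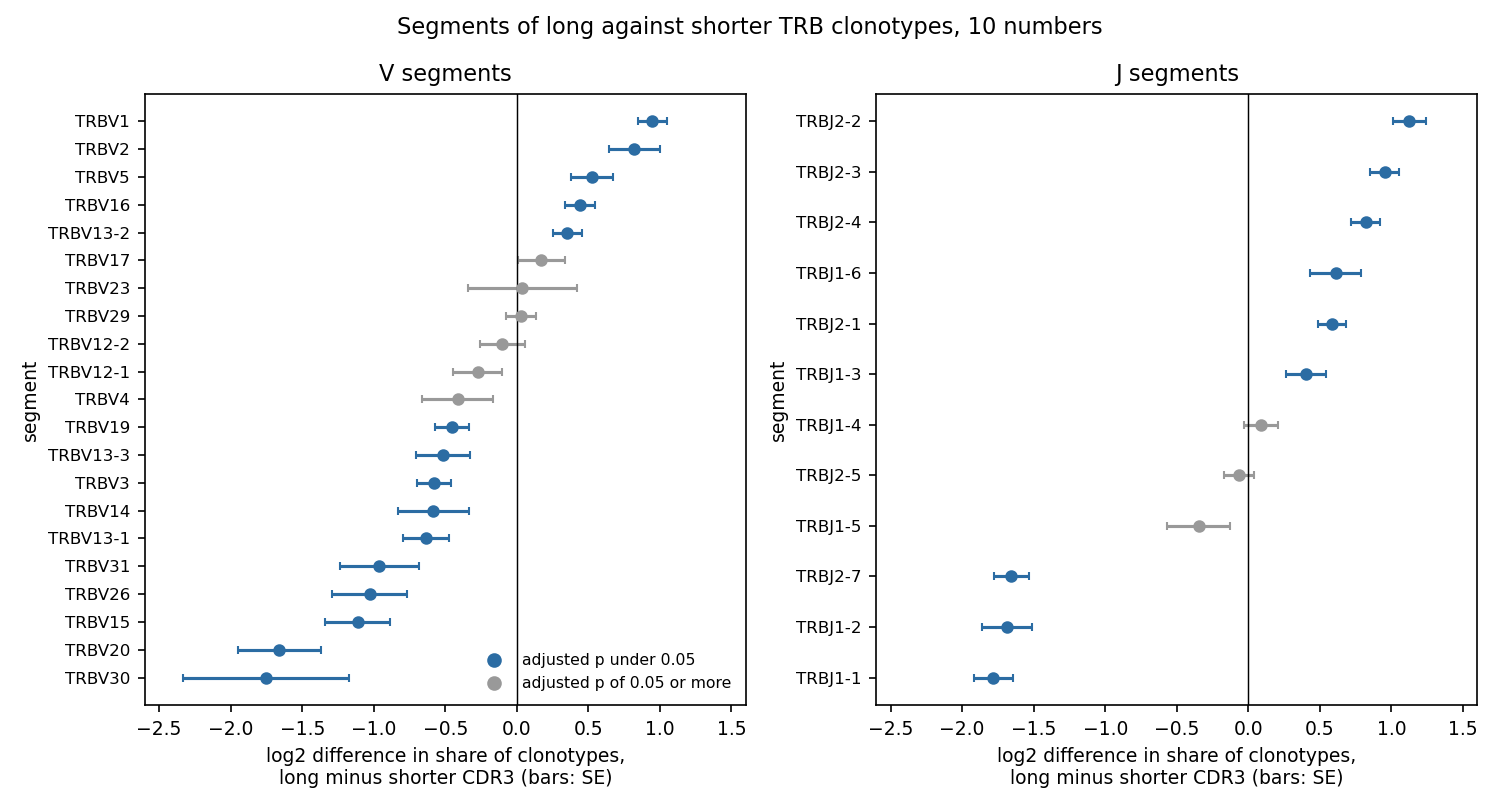
Log2 difference in the share of distinct clonotypes, long minus shorter CDR3, for each V (left) and J (right) segment tested. Bars are SE derived from the edgeR log2 difference and its test statistic. Blue points passed an adjusted p of 0.05 and grey points did not. TRBJ2-2 lies highest at 1.13, and TRBJ1-1, TRBV30, TRBJ1-2, TRBV20 and TRBJ2-7 lie below -1.6.

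Of the 12 J segments, 6 were higher among the long clonotypes (TRBJ2-2, TRBJ2-3, TRBJ2-4, TRBJ1-6, TRBJ2-1 and TRBJ1-3), 3 were lower (TRBJ1-1, TRBJ1-2 and TRBJ2-7) and 3 did not pass. Seen from the segment, 27.3% of all TRBJ2-2 clonotypes, 25.9% of TRBJ2-3 and 23.7% of TRBJ2-4 were long, against 5.395% of TRBJ2-7, 5.19% of TRBJ1-2 and 4.77% of TRBJ1-1. Of the 21 V segments tested, 5 were higher (TRBV1, TRBV2, TRBV5, TRBV16 and TRBV13-2) and 10 were lower (TRBV19, TRBV13-3, TRBV3, TRBV14, TRBV13-1, TRBV31, TRBV26, TRBV15, TRBV20 and TRBV30). Of these 24 segments, 11 did not pass the sign-flip test: TRBV2 (adjusted p = 0.061, exact), TRBV5, TRBV13-2, TRBJ1-6 and TRBJ1-3 among the higher, and TRBV15 (adjusted p = 0.056, exact), TRBV13-3, TRBV13-1, TRBV19, TRBV3 and TRBV14 among the lower. TRBJ1-5, lower among the long in 9 of 10 numbers, passed only the sign-flip test (adjusted p = 0.018, exact). With 17 or more letters against 15 or fewer, TRBJ1-3 had a log2 difference of -0.10 (edgeR adjusted p = 0.740), and TRBV30 did not pass (edgeR adjusted p = 0.209). TRBV30 did not pass in the ovary alone either (edgeR adjusted p = 0.117). In the TRBV13 family percentages differed: 18.7% of TRBV13-2 clonotypes were long, against 10.2% of TRBV13-1 and 10.9% of TRBV13-3. How the authors assigned reads between such similar segments is not given in the sources used here, and no member carried a joined V name. With TRB counts in place of clonotypes 11 segments passed, and TRBV1 had a log2 difference of -0.022 (edgeR adjusted p = 0.969). TRBV5 (-0.35, edgeR adjusted p = 0.445) and TRBV16 (-0.11, edgeR adjusted p = 0.846) also had the opposite direction there. Single clones can hold much of the counts: TRBV29 made up 9.47% of long brain clonotypes but 31.7% of long brain counts, which include the clone of number 14. TRBV29 itself passed in neither setting, and how far single clones set the change from clonotypes to counts was not tested.

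The middle of the long CDR3, as left by a fixed trim, also differed in its residues, with less stability than the segments. Trimming a fixed number leaves a longer middle in a long CDR3, so residues from the V and J ends can weigh differently there. How far this sets the differences below was not tested. After 4 residues were trimmed from each end, 5 of 20 amino acids (25.0%) passed an adjusted p of 0.05 in exact sign-flip permutation tests over the 10 numbers. Glycine, the smallest residue, made up 23.4% ± 0.608 of the middle residues of long and 21.2% ± 0.477 of shorter CDR3 (SD, n = 10), 2.17 points apart and higher in 10 of 10 numbers (exact permutation, adjusted p = 0.0130). Tyrosine was at 3.47% ± 0.958 against 5.004% ± 0.234, a difference of -1.54 points, lower in 10 of 10 numbers (exact permutation, adjusted p = 0.0130). Methionine, a rare residue here, was at 0.104% against 0.241%, lower in 10 of 10 numbers (exact permutation, adjusted p = 0.0130). Alanine was 1.54 points higher in 9 of 10 numbers and threonine differed by -0.92 points, lower in 8 of 10 (exact permutation, adjusted p = 0.0391 for each).

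**Figure D5:**
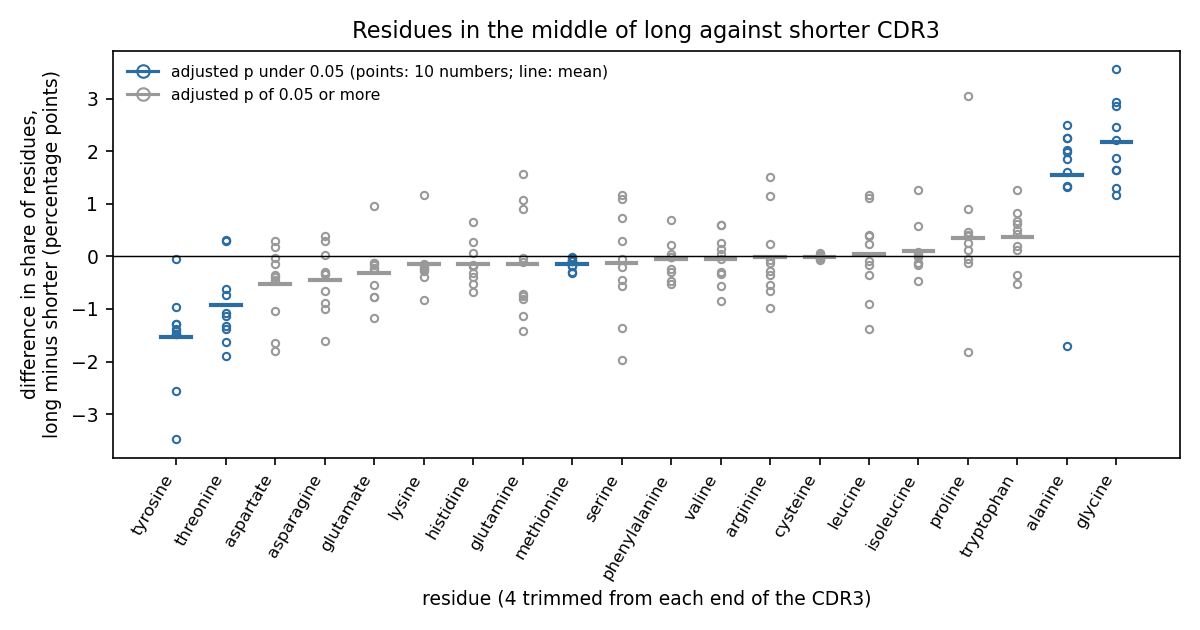
Difference in the percent of middle residues between long and shorter CDR3 (percentage points), for the 20 amino acids; points are the 10 numbers, lines are means, and blue marks an adjusted p under 0.05. All 10 numbers lie above 0 for glycine and below 0 for tyrosine, and number 7 lies at -1.71 for alanine.

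The residue differences moved with the J usage and with the trimming. With the shorter clonotypes weighted to the J usage of the long ones in each number, an alternative chosen after seeing the data, the glycine difference was 1.96 points (exact permutation, adjusted p = 0.00977) and methionine -0.14 (exact permutation, adjusted p = 0.00977), while glutamate (-1.37) and asparagine (-1.49) passed as well (exact permutation, adjusted p = 0.00977 each), lower in 10 of 10 numbers. In that setting tyrosine was -0.24 (exact permutation, adjusted p = 0.391), threonine -0.61 (exact permutation, adjusted p = 0.0781) and alanine 0.34 (exact permutation, adjusted p = 0.472). With 5 residues trimmed from each end, glycine was -0.18 points (exact permutation, adjusted p = 0.814) and tyrosine 0.38 points (exact permutation, adjusted p = 0.430), so neither kept its direction, and asparagine (-2.32) was the only residue that passed (exact permutation, adjusted p = 0.0391). Without number 7, which had 21 long clonotypes, 7 residues passed, and without each of the other 9 numbers 3 or 4 passed.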

How the data were processed

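RNA-based T cell receptor libraries of 29 metastases were deposited by the authors as 1 table of raw counts per chain, CDR3, V and J name, without normalization. Per the submitters' processing notes the genome build was GRCh38, a human build, for mouse samples; the aligner and caller, and whether counts stand for reads or for molecules, are not given in the sources at hand. Segment names were matched to RefSeq names (37 of 37 matched) and no coordinates were used.

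Rows of chains starting TRB with every residue resolved were kept; 133 unresolved TRB rows were left out. No row held a stop letter. Shares were computed per sample, and the parts of a number were averaged. Brain contrasts and the comparison of organs used exact permutation tests over numbers, and clone size, sharing and residues used exact sign-flip permutation tests (Python 3.11.15, numpy 2.4.6, pandas 2.3.3, scipy 1.17.1). Segments were tested with edgeR 4.0.16 (quasi-likelihood, number as block, R 4.3.3) on numbers of distinct clonotypes, with DESeq2 1.42.0 as an alternative. The SE given with edgeR was derived, as the absolute log2 difference divided by the square root of the test statistic F. Benjamini-Hochberg adjustment was made separately for each family of tests, and an adjusted p under 0.05 passed. The tests were two-sided, except that of the sum of squares, which counts assignments with an equal or larger share. The sign-flip test, the permutation test without strata and edgeR were tried on repeated simulated data. The sum of squares test was tried on a single draw per setting. The contrasts within days and DESeq2 were not tried on simulated data.

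Segments past the threshold could be named, with full values for the 3 at each end; TRBJ2-7 was added after its values were seen. Clonotypes were named if they were the largest long one of a number, held 1% of a sample or occurred in 3 or more numbers. The members and lists were chosen with earlier results of these data known. The main test of the organs was made without a block. Same-numbered brain and ovary samples did not deviate together in the segment usage of all TRB clonotypes (r from -0.33 to 0.38 over the 5 numbers). They did share long clonotypes: 16.25% to 26.2% of those in the brain, against at most 2.70% with the ovary of another number. The unpaired test thus treats linked samples as independent. Amino acid sequences are not printed.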

Additional observations from a re-analysis of the deposited data

Results flagged for a closer look

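The long share of TRB counts in part 2 of brain number 6 (20.9%) lay far from the other 3 samples with concurrent treatment, which were at 9.54%, 10.3% and 11.4%. The difference in alanine of the CDR3 middle in number 7 (-1.71 percentage points) lay far from the other 9 numbers; number 7 held 21 long clonotypes. Chance flags about 1 in 20 groups, and 2 of 18 groups examined were flagged. Outside the clonotypes analysed, 30 TRB rows of 16 or more letters with an unresolved residue held 49 counts in all, at most 13 in a sample.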

How the results depend on the processing

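The sharing difference kept its direction and its side of the threshold under all 18 alternatives, from -13.5 (CDR3 residues alone) to -4.37 points (15 letters or more). No brain contrast passed under an alternative other than leaving out number 3 or 7. With a threshold of 17 letters the share of counts with any anti-PD-L1 differed by -0.14, and the shares of clonotypes by -0.15 (lead-in), -0.41 (any anti-PD-L1) and 0.30 (trametinib); with 15 letters the trametinib difference in clonotypes was 0.67. Without a number, the lead-in difference in counts ranged from -0.17 to 5.33, and the share of the sum of squares of clonotypes from 32.1% to 96.8%. The ovary difference in clonotypes was 3.06 (15 letters), 1.79 (17 letters), 3.24 (single counts left out), 3.19 (largest clonotypes left out), 2.93 (CDR3 from cysteine to phenylalanine only), 3.11 (near neighbours left out) and 3.03 points (parts summed), each past the threshold. These tests were unpaired and were made at the unequal depth of the organs. With the number as a replicate block the ovary difference kept its value (exact sign-flip permutation p = 0.0625, adjusted p = 0.125). The segment usage of the brain was closest to that of its own number's ovary in 2 of 5 numbers. The brain size ratio was -0.35 without the largest long and largest shorter clonotype of each sample. The long class held fewer clonotypes, and how far this weighs when the largest of each class is left out was not tested. The percent of brain clonotypes with 2 or more counts differed by -6.496 points between long and shorter. Both of these alternatives were past the threshold. Without a number the brain size ratio ranged from -0.13 to 0.021. Segments past the threshold numbered 24 in the main test and 11 with TRB counts. With TRB counts 3 of the 24 had the opposite direction, TRBV5 at -0.35, TRBV16 at -0.11 and TRBV1 at -0.022. Segments past the threshold numbered 15 in the brain alone, 14 by the sign-flip test and 22 to 25 without a number. With 17 letters or more against 15 or fewer they numbered 18 (16 of the 24, and TRBJ1-3 with the opposite direction). In the ovary alone no residue could pass, since 5 numbers allow no exact sign-flip p below 0.0625 (smallest adjusted p 0.125). There glycine (2.37 points) and alanine (1.86) were higher in 5 of 5 numbers. Tyrosine (-1.36), threonine (-1.39) and methionine (-0.0635) were lower in 5 of 5. Residues past the threshold numbered 1 with 5 residues trimmed (glycine -0.18, tyrosine 0.38), 8 with 3 trimmed and 2 in the brain alone. The number was 0 weighted by counts, 0 with 17 against 15 or fewer letters, and 3 to 7 without a number. The cause of these changes was not tested. Near neighbours were clonotypes 1 residue from a clonotype at least 20 times larger in the same sample; this alternative and the restriction to cysteine and phenylalanine were chosen after seeing the data. Brain samples held as few as 9 long clonotypes, which limits what they can show.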
